A study of Solanum lycopersicum with 36 samples.

Results

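The 200 genes whose messenger RNA was most specific to Light 8h, the time group 8 h into the light phase, are described here in leaves of tomato (Solanum lycopersicum), among 34075 gene identifiers in all. They were chosen by their mRNA levels: a gene qualified if its highest mean of the 6 time groups was at Light 8h and reached 10 CPM, a count divided by the library's total in genes and multiplied by 1000000. The 2400 genes that qualified were ranked by log2(mean + 1) at Light 8h minus that of the next highest time, called the specificity here, and the first 200 were taken. All samples were leaves of the genotype given as HeinZ 1706, from plants 4 weeks old kept at 25 °C under 12 h light and 12 h dark. The groups were Light 0h, Light 4h, Light 8h, Dark 0h, Dark 4h and Dark 8h, read here as hours since that phase began. At each time there were 3 libraries of polyadenylated RNA, called mRNA, and 3 of GMUCT, a method that sequences the 5' ends of RNA that has lost its cap or been cut. Whether replicates were separate plants, or both assays used the same leaves, is not in the labels, and p-values cover only the variation among these libraries, which may be technical.

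An mRNA is protected by a cap at its 5' end. In plant cells decay often involves removal of the cap, after which an exonuclease degrades the RNA from the 5' end. Small RNAs can also direct a cut within the transcript. Uncapped RNA is therefore mostly RNA on its way to decay, and its amount depends on how much transcript there is, how fast it is uncapped and how fast the fragments disappear. In leaves, the circadian clock and light together give many genes a preferred time of day. Bulk leaf RNA was measured, so fewer cells of a type and less RNA per cell cannot be told apart.

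The files give genes as identifiers only, and none (0) of the 34075 was found in the reference table of 41476 tomato genes, so members are given by identifier, with no name or function, and no sequence is shown. Gene counts summed to between 6632784 and 27126312 in mRNA libraries and between 15739253 and 20581411 in GMUCT libraries. Reads placed at several positions, which were not counted in genes, took 2.11 to 3.52% in mRNA. In GMUCT they took 8.6 to 10.1% at Light 8h, 11.9 to 26.6% at Dark 0h and 13 to 40.2% at Dark 4h, and their part in the differences between these times was not tested. A further feature of the Dark 0h libraries bears on what follows. Across 9882 genes whose mean reached 10 CPM in mRNA and in GMUCT, the deviation of each time from the gene's own daily mean correlated between mRNA and GMUCT with r from 0.67 to 0.78 at the other 5 times, but with r = -0.04 at Dark 0h. GMUCT of Dark 0h correlated with mRNA of Light 8h at r = 0.64. Which assay's Dark 0h libraries stand apart from their label, if either, cannot be told apart, and members were also counted without Dark 0h. Genes are not independent replicates, and these correlations are descriptions.

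By construction, mRNA of the members stood highest at Light 8h, and the following mRNA values carry no test. The median member had 49.3 CPM at Light 8h, with a range over members of 10.1 to 10230.2 CPM. At that time 65 members had at least 100 CPM and 42 had under 20, and together the members held 4.19% of all mRNA counts in genes. The specificity had a median of 1.09 on the log2 scale, was at least 1 in 128 members and at least 2 in 14. In 184 members the lowest Light 8h library lay above every one of the libraries of the other 5 times, and in 16 it did not. The highest Light 8h library was replicate 1 in 81 members, replicate 2 in 90 and replicate 3 in 29. Neither of these counts was made over all genes, and nothing is read from them. At the lower edge of the list, gene:Solyc03g123620.4 the last but one on the list, had 18.8, 45.8 and 25.7 CPM at Light 8h and 11.2, 30.02 and 6.91 CPM at Dark 4h, its next highest time, so that these libraries overlapped. Solyc04g080010 at rank 200 had a specificity of 0.87, and the next genes in rank, gene:Solyc10g080370.1 and gene:Solyc06g069150.1, had 0.87 and 0.86.

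Outside Light 8h the members' mRNA was lowest at Light 0h by median and lower at Dark 0h than at Dark 4h. The median over members of the 6 group means was 5.57 CPM in the Light 0h group, 14.5 in Light 4h, 49.3 in Light 8h, 10.5 in Dark 0h, 15.3 in Dark 4h and 8.29 in Dark 8h. Light 4h was the next highest time in 93 members, Dark 4h in 72, Dark 0h in 21, Dark 8h in 9 and Light 0h in 5. The mean at Light 8h was over 4 times that at Dark 0h in 110 members. In 149 members the mean at Dark 4h was above that at Dark 0h, against 56% of the 19711 genes that passed the filter on low counts in mRNA. In 66 members all 3 libraries at Dark 4h lay above all 3 at Dark 0h, as in 20.2% of those genes. Both times entered the choice of members, so nothing is read from these shares.

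The highest ranked member was gene:Solyc03g114160.1, with a specificity of 2.94. Its mRNA was 27.5, 39.6 and 29.8 CPM at Light 4h, 289, 277 and 198 CPM at Light 8h and 11, 7.19 and 5.04 CPM at Dark 0h, with no overlap among these times. The member of rank 2, Solyc05g005280, had 23.6, 23.4 and 22.6 CPM at Light 4h, 218, 159 and 138 CPM at Light 8h and 2.51, 1.88 and 3.5 CPM at Dark 0h. In both genes every Dark 0h library lay below every Light 4h library. The most abundant member was Solyc07g064160, with 10047, 11256 and 9388 CPM at Light 8h. Its mRNA at Light 0h was 60.6, 53.7 and 63.9 CPM and at Dark 0h 278, 303 and 108 CPM. Solyc07g041900, the next most abundant, had 4060.4, 2085 and 3013 CPM at Light 8h. At Dark 4h it had 1095, 1287 and 1429 CPM, above its 3 Dark 0h libraries of 368, 417 and 477 CPM.

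**Figure D1:**
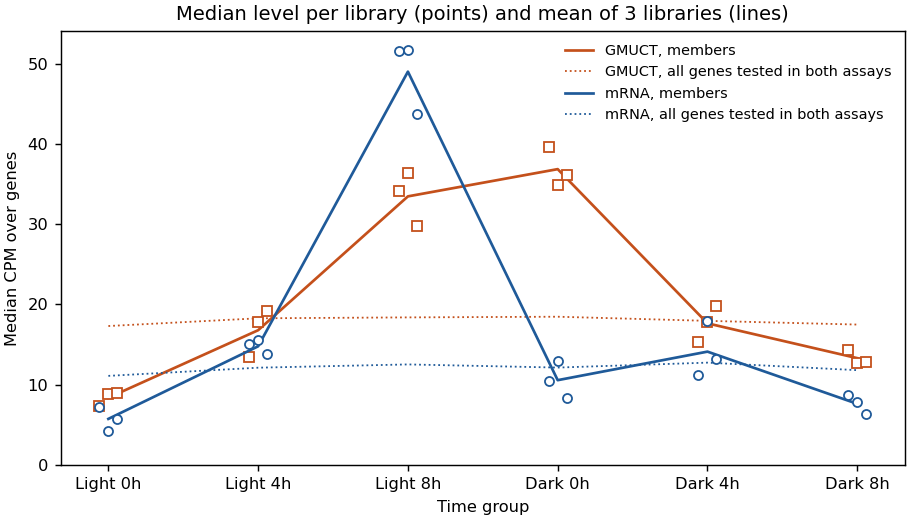
Median CPM over genes for each library (points) and the mean of the 3 libraries (lines) at the 6 time groups, for the members (solid) and for all genes tested in both assays (dotted). Member medians in GMUCT lie between 29.8 and 39.6 CPM at Light 8h and Dark 0h, while member medians in mRNA lie between 43.8 and 51.7 CPM at Light 8h and between 8.27 and 12.9 CPM at Dark 0h.

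Uncapped RNA of the members, which the choice of members did not use, was highest by median at Dark 0h and Light 8h. GMUCT levels are CPM scaled by trimmed mean of M values (TMM). The median over members was 8.59 CPM in the Light 0h group, 17.5 in Light 4h, 33 in Light 8h, 38.6 in Dark 0h, 17.1 in Dark 4h and 13.6 in Dark 8h. All 200 members passed the filter on low counts in GMUCT. Of them, 162 (81%) changed over the day by the quasi-likelihood F-test of edgeR, with an adjusted p under 0.05 over 20696 genes, against 58.4% of all genes tested. Without Dark 0h, 152 members passed over the 5 remaining times, a fit for which the share of all genes was not counted. The calls were spread over abundance: 35 of 44 members with a mean under 10 CPM in GMUCT passed, 73 of 92 between 10 and 50 CPM, and 54 of 64 at 50 CPM or more. Among all genes of the same levels 42.7, 64 and 76.4% passed. The range of a member's group means over the day had a median of 2.28 on the log2(CPM + 0.5) scale, from 0.51 to 9.16, against a median of 0.87 over all genes tested.

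**Figure D2:**
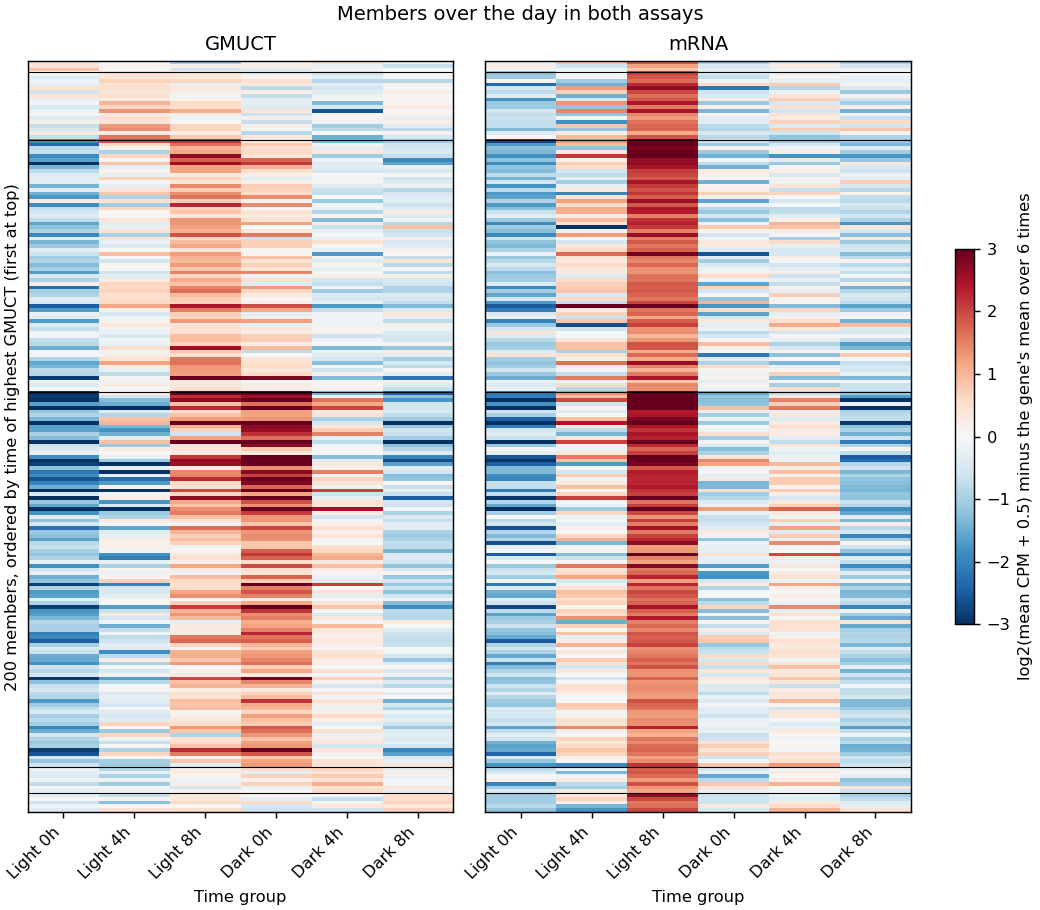
Each row is one of the 200 members and each column a time group, in GMUCT (left) and mRNA (right), coloured by log2(mean CPM + 0.5) minus the gene's own mean over the 6 times. Rows are grouped by the time of highest GMUCT, from Light 0h (3 members, top) over Light 4h (18), Light 8h (67), Dark 0h (100) and Dark 4h (7) to Dark 8h (5, bottom).

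Dark 0h was the time of the highest GMUCT mean in 100 members (50%) and Light 8h in 67 (33.5%). Light 4h held 18 members, Dark 4h 7, Dark 8h 5 and Light 0h 3. Of these smaller counts, Light 0h held 5 without replicate 1 of every group, and without replicate 3 Light 4h held 11 and Dark 8h 8. Over all 20696 genes tested, 23.3% were highest at Dark 0h and 12% at Light 8h. A highest mean is not a call: of the 100 members highest at Dark 0h, 26 were called higher there than at Light 8h, and of the 67 highest at Light 8h, 8 were called lower at Dark 0h. The same counts were not made over all genes highest at those times, so nothing is read from them. When Dark 0h was left out, the time of highest GMUCT was Light 8h in 141 members (70.5%), against 21.5% of all genes. For comparison, 2 lists of 200 genes were made by the same rule for neighbouring times. Of the genes most specific to Light 4h in mRNA, 163 of 200 (81.5%) had their highest GMUCT at Light 4h itself. Of those most specific to Dark 0h, 25 of the 197 tested (12.7%) had it at Dark 0h and 63 (32%) at Dark 4h. These shares are descriptions of lists chosen on mRNA and the differences between the lists were not tested.

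**Figure D3:**
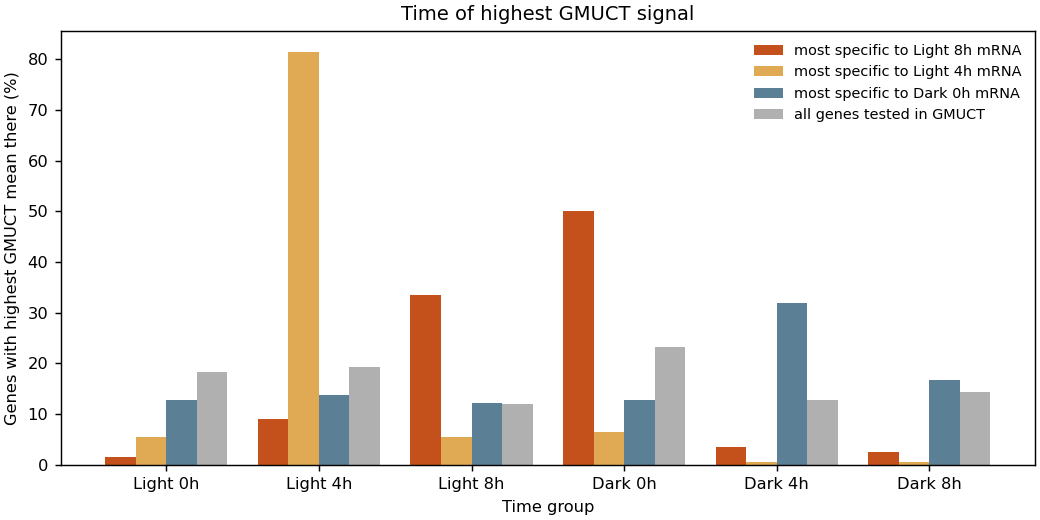
Share of genes (%, from 0) whose highest GMUCT group mean fell at each time, for the genes most specific to Light 8h, Light 4h and Dark 0h in mRNA and for all genes tested in GMUCT. Among the genes most specific to Light 8h the bars at Dark 0h (50%) and Light 8h (33.5%) stand above those of all genes (23.3 and 12%).

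Uncapped RNA of most members rose over the light phase. At Light 8h, GMUCT was higher than at Light 0h in 141 members (70.5%) and lower in 2 (1 without replicate 2 of Light 0h), with 17.9% of all genes tested called higher and 19.5% lower. The median log2 change was 1.79 over the members and 0.01 over all genes, and 51 members were called with a change above 3, against 1.53% of all genes. The rise began early in part of the list. At Light 4h against Light 0h, 83 members were higher and 7 lower, with 14.8 and 15.8% of all genes. At Light 8h against Light 4h, 91 were higher and 2 lower, with 6.76 and 6.59% of all genes, and the medians were 0.97 over members and -0.01 over all genes. The count of 2 lower at Light 8h than Light 4h became 0 without replicate 1 or replicate 3 of Light 8h and 1 without replicate 2 of Light 8h or replicates 2 or 3 of Light 4h. Comparisons that share a time share its libraries.

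The members named for the largest called rises had little GMUCT at Light 0h. In Solyc07g064160 GMUCT was 8.74, 17.9 and 16.8 CPM at Light 0h, 577, 789 and 670.1 CPM at Light 4h and 4369, 4644 and 3920.4 CPM at Light 8h. The 3 times did not overlap, and the log2 change at Light 8h against Light 0h was 8.21 ± 0.34 (SE; edgeR adjusted p = 1.03e-10). Its change at Light 4h against Light 0h was 5.55 ± 0.30 (adjusted p = 5e-09). Solyc01g079470 had 1196, 1213 and 1067 CPM at Light 8h and 3.77, 1.83 and 7.89 CPM at Light 0h, a log2 change of 8.01 ± 0.69 (adjusted p = 2.71e-07). Its Light 4h libraries lay between, at 25.5, 62 and 133 CPM, and differed widely among themselves. Solyc06g071820 reached 81.7, 110.2 and 93 CPM at Light 4h, against 2.75, 2.86 and 1.96 CPM at Light 0h (5.23 ± 0.31, adjusted p = 1.22e-08).

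The members with the largest called rises after Light 4h were low in GMUCT until then. Solyc07g055720 had 152, 138 and 130.4 CPM at Light 8h and 0.563, 0.502 and 1.33 CPM at Light 4h, a log2 change of 7.44 ± 0.49 (SE; adjusted p = 6.21e-08). At Light 4h against Light 0h its GMUCT fell by 1.83 on the log2 scale (adjusted p = 0.00985), while its mRNA libraries were at 49, 42.7 and 45.7 CPM at Light 4h and 4, 3.18 and 4.22 CPM at Light 0h. So at Light 4h its mRNA level was already above that of Light 0h while uncapped RNA was below. Solyc03g081240 had 35.8, 43.2 and 38.4 CPM at Light 8h and 0.0563, 0.279 and 0.497 CPM at Light 4h in GMUCT, a log2 change of 7.10 ± 0.39 (adjusted p = 1.02e-08). The Light 4h values of both genes rest on few reads, 24 or fewer in every library. Solyc09g091050 also had less GMUCT at Light 4h, with 11.7, 13.6 and 13.3 CPM against 28.9, 37.9 and 22.6 CPM at Light 0h (-1.21 ± 0.15, adjusted p = 3.22e-05), before 95.2, 106 and 101 CPM at Light 8h. Its mRNA, in contrast, was 273, 268 and 261 CPM at Light 4h and 122, 102 and 109 CPM at Light 0h.

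Of the named members called lower in the light, some lost the call under alternatives and others, such as Solyc09g091050, did not. Solyc10g054100 had 32, 41.8 and 23.4 CPM at Light 8h against 91.4, 124 and 51.2 CPM at Light 0h (-1.46 ± 0.41, adjusted p = 0.0102). Without replicate 2 of Light 0h the adjusted p was 0.0564, the highest of 12 alternatives whose lowest was 0.00121. Over all 6 times this gene's edgeR test for any difference did not pass the threshold (adjusted p = 0.0691). Solyc01g080150 had 23.7, 30.8 and 21.1 CPM at Light 8h against 67.9, 85.7 and 46.4 CPM at Light 0h (-1.40 ± 0.34, adjusted p = 0.00365). Its call at Light 4h (adjusted p = 0.0495) was lost in 7 of 12 alternatives, with adjusted p from 0.0259 to 0.193. Between Light 8h and Light 4h, Solyc02g082260 had 5.38, 4.64 and 4.81 CPM at Light 8h and 26.7, 6.14 and 14.4 CPM at Light 4h, and its call (adjusted p = 0.0457) was lost in 6 of 12 alternatives, with adjusted p from 0.00842 to 0.242. The other, gene:Solyc05g051660.1, had 54.7, 55 and 52.5 CPM at Light 8h against 74.6, 86.7 and 83.9 CPM at Light 4h (adjusted p = 0.0155), a call lost in 3 of 12 alternatives with adjusted p from 0.00179 to 0.0619.

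**Figure D4:**
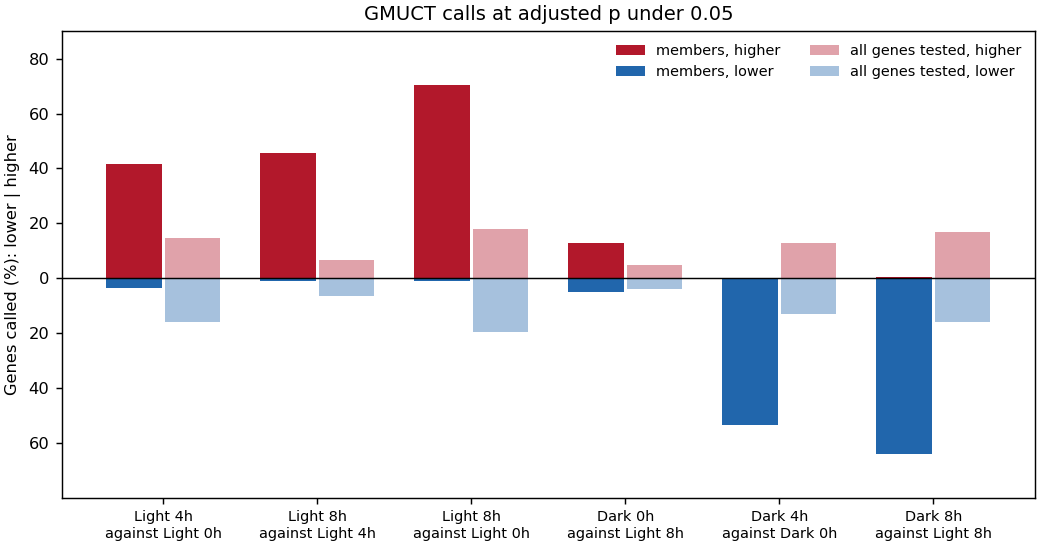
Share of genes (%) called higher (upward bars) or lower (downward bars) in GMUCT at adjusted p under 0.05 in 6 comparisons, for the 200 members (dark) and for all 20696 genes tested (pale). Members are mostly called higher within the light phase (70.5% at Light 8h against Light 0h) and lower within the dark (53.5% at Dark 4h against Dark 0h).

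Between Dark 0h and Light 8h the test called no change of uncapped RNA in most members, as in most genes, while the members' mRNA was lower at Dark 0h. In GMUCT 26 members (13%) were higher at Dark 0h and 10 (5%) lower, with 4.67 and 4.01% of all genes. The share called lower was thus near that of all genes. The other 164 members were not called, nor were 18901 of all 20696 genes, so the lack of a call is not particular to the members. A change that was not called is not shown to be absent: the SE of a member's log2 change had a median of 0.32. The log2 change lay between -1 and 1 in 149 members, with a median of 0.11 and a range from -2.36 to 3.24. Over the same interval the mRNA difference, which the choice of members fixed to be negative, had a median of -2.05 and ranged from -6.06 to -0.89 on the log2(CPM + 0.5) scale. The counts moved when some single libraries were left out. Leaving out replicate 3 of Dark 0h gave 16 higher members, replicate 2 of Light 8h 17 and replicate 3 of Light 8h 15. Leaving out replicate 3 of Dark 0h gave 1 lower member, and leaving out Light 8h replicate 1, 2 or 3 gave 4, 2 or 4. DESeq2 called 16 lower. How far the calls over all genes moved in these fits was not counted, so nothing particular to the members is read from this.

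Among the members whose uncapped RNA rose further, Solyc02g014860 had GMUCT of 781, 731 and 788 CPM at Dark 0h against 140.4, 125 and 145 CPM at Light 8h (2.49 ± 0.25, SE; adjusted p = 1.39e-05). Its mRNA was 277, 263 and 188 CPM at Dark 0h and 1077, 689.9 and 731 CPM at Light 8h. The assays thus stood in opposite order at these times, with no overlap between the groups in either. The order of the mRNA means was fixed by the choice of members. Solyc06g009190 had 43.4, 82.6 and 77.4 CPM in GMUCT at Dark 0h against 8.62, 11.6 and 5.83 CPM at Light 8h (2.96 ± 0.41, adjusted p = 0.000278). In the other direction, gene:Solyc03g114160.1, the member of rank 1, had 11.7, 7.04 and 5.75 CPM at Dark 0h against 29.2, 33.6 and 29.6 CPM at Light 8h (-1.92 ± 0.43, adjusted p = 0.0108). Without replicate 3 of Dark 0h its adjusted p was 0.0642, the highest of 11 alternatives whose lowest was 0.000352. The member of rank 2 differed from it: GMUCT of Solyc05g005280 was 69.9, 60.1 and 78.6 CPM at Dark 0h and 73.4, 73.4 and 58.4 CPM at Light 8h (0.02 ± 0.30, adjusted p = 0.972). gene:Solyc04g064545.1 was called lower, with 2.31, 9.29 and 3.78 CPM at Dark 0h against 12.8, 21.6 and 13.8 CPM at Light 8h (adjusted p = 0.0103), a call lost in 3 of 11 alternatives with adjusted p from 0.000219 to 0.0808.

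**Figure D5:**
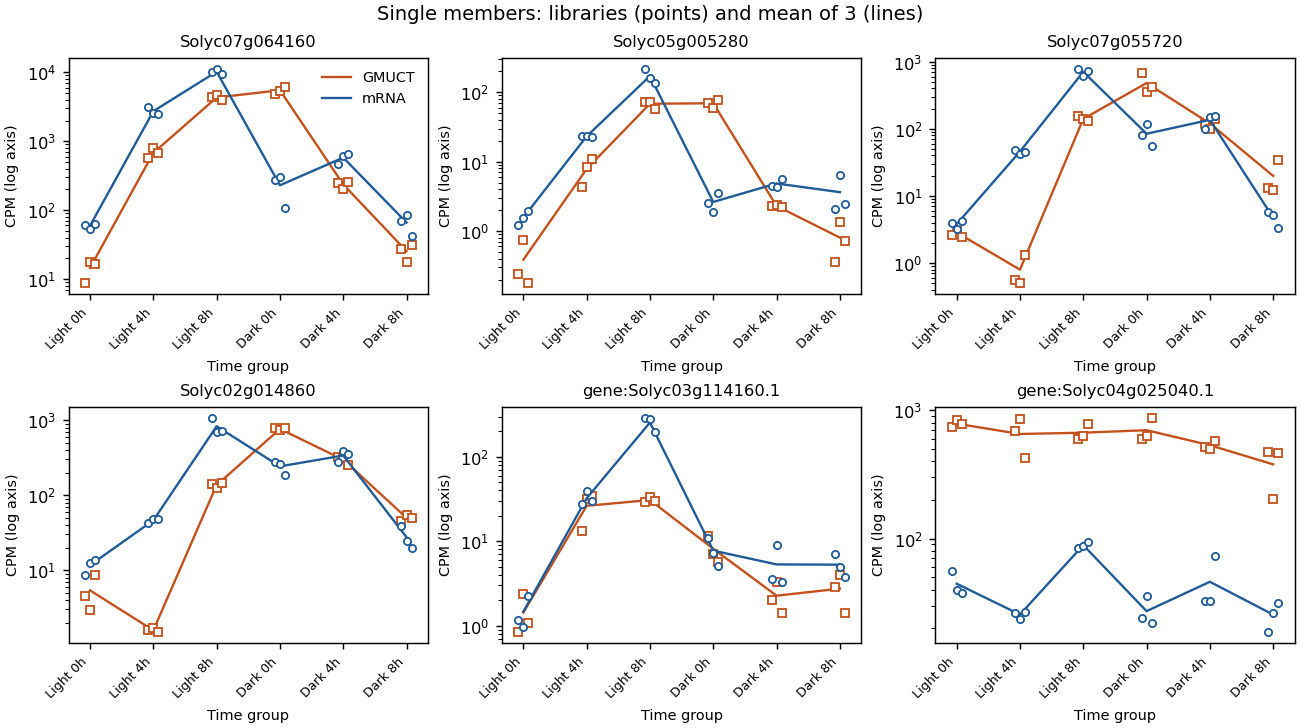
CPM on a log axis of 6 members at the 6 time groups, in GMUCT (squares) and mRNA (circles), with a point per library and lines through the means of 3 libraries. In Solyc02g014860 the Dark 0h libraries are at 731 to 788 CPM in GMUCT and 188 to 277 CPM in mRNA, and in gene:Solyc04g025040.1 GMUCT lies above mRNA at every time.

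Uncapped RNA fell in many members within the dark phase. At Dark 4h against Dark 0h, 107 members (53.5%) were lower and 0 higher by edgeR, with 13 and 12.8% of all genes, and the median log2 change was -1.01 over members and -0.01 over all genes. The fall was not particular to the members. Of the genes most specific to Light 4h in mRNA, 59.5% were lower and 1% higher, and of those most specific to Dark 0h, 9.14% were lower and 26.9% higher. At an unadjusted p under 0.05, 2 members were higher, and DESeq2 called 2 higher at the adjusted threshold. By edgeR 2 were higher without replicate 3 of Dark 4h and 1 without replicate 2 of Dark 0h. Shares of all genes at these settings were not counted. In a comparison that does not use Dark 0h, at Dark 8h against Light 8h, 128 members (64%) were lower and 1 higher, with 16.1 and 16.7% of all genes. Here 59.5% of the Light 4h list were lower and 1% higher, and 8.63% of the Dark 0h list were lower and 40.1% higher. Without the Dark 0h libraries in the fit of this comparison, 127 members were lower and the 1 higher member was not called. Nor was it called without replicate 2 of Dark 8h or replicates 1 or 3 of Light 8h. The shares of all genes in these fits were not counted. In 72 members GMUCT was called both higher at Light 8h against Light 4h and lower at Dark 4h against Dark 0h, against 2.81% of all genes. Of these 72, 18 were also called higher at Dark 0h against Light 8h (0.546% of all genes had all 3 calls), 3 lower (0.0966%) and 51 neither.

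Solyc07g055050 had 7.03, 7.99 and 16.3 CPM of GMUCT at Dark 4h against 423, 392 and 458 CPM at Dark 0h (-5.34 ± 0.31, SE; adjusted p = 1.12e-08). Its mRNA was 238, 314 and 240.3 CPM at Light 8h, 74.7, 123 and 49.6 CPM at Dark 0h and 25.9, 28.8 and 25.1 CPM at Dark 4h. Its GMUCT was highest at Dark 0h, while the choice of members fixed its mRNA to be highest at Light 8h. Solyc07g045080 had 0.185, 0.402 and 1.24 CPM at Dark 4h against 10.04, 22.7 and 38.3 CPM at Dark 0h (-5.27 ± 0.63, adjusted p = 3.19e-05), with Dark 0h libraries that differed widely. By Dark 8h, Solyc07g064160 was at 27.6, 17.6 and 31.1 CPM, against 4369, 4644 and 3920.4 CPM at Light 8h (-7.41 ± 0.33, adjusted p = 2.67e-10). Solyc06g071820 was at 4.64, 4.95 and 4.81 CPM, against 588, 614 and 577 CPM at Light 8h (-6.95 ± 0.32, adjusted p = 3.43e-10). The 1 member higher at Dark 8h was Solyc10g054100, with 94.6, 64.9 and 55.3 CPM at Dark 8h against 32, 41.8 and 23.4 CPM at Light 8h (adjusted p = 0.0402), a call lost in 5 of 12 alternatives with adjusted p from 0.0119 to 0.144.

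The amount of uncapped RNA relative to mRNA varied among members and over the day. This ratio shares its mRNA values with the rule that chose the members, so it carries no test, and it compares each assay on its own scaling. The median log2 ratio of GMUCT to mRNA over members, with 0.5 CPM added to each, was 0.39 in the Light 0h group, -0.13 in Light 4h, -0.66 in Light 8h, 1.74 in Dark 0h, 0.24 in Dark 4h and 0.75 in Dark 8h. Over the 19161 genes tested in both assays it lay between 0.35 and 0.46 at all 6 times. GMUCT exceeded mRNA in 60 members at Light 8h and in 173 at Dark 0h. At Light 8h the ratio of CPM ran from 0.0249 to 7.59 with a median of 0.626. At the low end, Solyc10g084880 had 13.7, 3.73 and 4.76 CPM in GMUCT and 224, 421 and 247 CPM in mRNA at Light 8h. Solyc06g083650 had 1.12, 1.33 and 0.659 CPM in GMUCT and 30.5, 41.6 and 25.1 CPM in mRNA at Light 8h, and 7.06, 8.65 and 13.8 CPM in GMUCT at Dark 0h. At the high end, Solyc02g071090 had 117, 113 and 111 CPM in GMUCT and 19.5, 17.5 and 7.84 CPM in mRNA at Light 8h. gene:Solyc04g025040.1 had 594, 635 and 780.4 CPM in GMUCT and 84.5, 88.2 and 94.1 CPM in mRNA at that time.

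Some members with their highest GMUCT away from Light 8h had no called difference from Light 8h or the time before. gene:Solyc04g025040.1 had the highest GMUCT of those highest at Light 0h, with 744, 836 and 783 CPM there. The difference at Light 8h was not called (-0.23 ± 0.28, adjusted p = 0.558), and the libraries of the 2 times overlapped. Solyc04g014400, the strongest of those highest at Light 4h, had 288, 261 and 313 CPM at Light 4h and 294, 251 and 292 CPM at Light 8h (adjusted p = 0.954), while its mRNA at Light 8h was 74.3, 25.7 and 26.4 CPM. Its first Light 8h library stood far above the other two in mRNA. gene:Solyc03g045070.1, highest at Dark 4h with 155, 117 and 135 CPM against 110.2, 133 and 103 CPM at Dark 0h, was not called either (adjusted p = 0.65). Solyc03g007960, highest at Dark 8h with 55.2, 66.6 and 31.5 CPM against 32.8, 45.6 and 51 CPM at Light 8h, was not called (adjusted p = 0.736). Solyc12g089220, the strongest of those highest at Light 8h, had 956, 862 and 1117 CPM in GMUCT and 1256, 799.6 and 998 CPM in mRNA at that time, and both assays were lowest at Light 0h. Its GMUCT at Dark 0h, 1199, 776 and 585 CPM, overlapped with that at Light 8h, and the difference was not called (-0.20 ± 0.24, adjusted p = 0.649). In all, 38 members showed no difference among the 6 times that passed the threshold in GMUCT.

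Members that shared the next highest mRNA time were compared in GMUCT, and these groups, set by mRNA values that also chose the members, were not tested against each other. Of the 93 members with Light 4h next in mRNA, 55 were called higher in GMUCT at Light 4h against Light 0h (14.8% of all genes) and 42 at Light 8h against Light 4h (6.76%). Of the 72 with Dark 4h next, these numbers were 17 and 36. At Dark 0h against Light 8h, 4 of the 93 were higher and 7 lower, and 18 of the 72 were higher and 3 lower, with 4.67 and 4.01% of all genes. The median log2 change over that interval was -0.03 with Light 4h next and 0.42 with Dark 4h next. Of the 21 members with Dark 0h next, 4 were higher and 0 lower, and of the 9 with Dark 8h next and the 5 with Light 0h next none (0) was called. GMUCT was highest at Dark 0h in 43 of the 93, 41 of the 72 and 12 of the 21.

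By the digits of their identifiers, which in tomato name the chromosome and the order of genes along it, the members lay on all 12 chromosomes. Chromosome 3 held 33 members (16.5%), against 10.7% of the genes that passed the filter in mRNA, and chromosome 5 held 20 (10%), against 6.74%. Chromosome 1 held 17 (8.5%), against 12.6%. In 14 pairs the identifiers of consecutive members differed by at most 100 in their running number, which took in 26 members, against 52 in the list of Light 4h and 54 in that of Dark 0h. Among them were Solyc06g053950, Solyc06g053960 and Solyc06g053980 on chromosome 6, and gene:Solyc03g114160.1 with gene:Solyc03g114130.1 on chromosome 3, pairs picked out after their values were seen. How many such pairs any list of this size would hold was not counted, so no clustering is read from them. Whether such neighbours are near-identical copies that share reads, or overlap on opposite strands, was not checked for want of an annotation, and values of single neighbours are uncertain. In GMUCT the neighbours did not always peak together: gene:Solyc03g114130.1 was highest at Dark 0h and gene:Solyc03g114160.1 at Light 8h.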

How the data were processed

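The authors deposited raw counts: each library's table holds whole reads for 34075 genes, plus HTSeq's counters, which were left out. The submitters' processing notes name cutadapt, STAR 2.4.2a and HTSeq. Settings, genome build, annotation and whether counting used strand were not given in the sources used here, so genes that overlap could share reads. Per the labels' protocols, mRNA was read as pairs of 150 nt and GMUCT from a single end over 50 nt.

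mRNA CPM used the plain total in genes, as the rule asks, and GMUCT CPM the TMM-scaled total. All 18 GMUCT libraries entered edgeR 4.0.16 in R 4.3.3 with 6 group means, filterByExpr, TMM and quasi-likelihood F-tests. p-values were adjusted by Benjamini and Hochberg over 20696 genes, with a threshold of 0.05. Standard errors are the log2 change divided by the square root of F. The scripts were tested on simulated data. Replicates within a group differed by more than sampling noise (chi-square per gene of 6.48 to 64.5).

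Members, lists, tests and the rule for named genes were chosen with earlier results of these data known. Named are the 2 highest ranked and 2 most abundant members, up to 2 called members per direction and comparison whose replicates did not overlap and whose higher mean reached 10 CPM, the member of highest GMUCT for each time, the genes at the edge of the list and the 2 lowest and 2 highest ratios at Light 8h. Where a neighbouring or contrasting value of these genes is given, it is for description. Planned lists of gene functions, promoter motifs and leaf cell markers were not used, since no identifier could be matched to a name, so the label leaf was not checked against markers.

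Alternatives were RLE size factors, no filter, DESeq2 1.42.0, a replicate block, a fit of the 2 groups alone, single libraries left out, unscaled CPM, other settings of the rule and, chosen after seeing the data, leaving out Dark 0h.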

Additional observations from a re-analysis of the deposited data

How the results depend on the processing

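Of 20 counts over members, 9 stayed within 1.5 times their value under every alternative run: among them the members higher at Light 8h against Light 0h (128 to 156) and against Light 4h (77 to 110), lower at Dark 4h against Dark 0h (79 to 117) and at Dark 8h against Light 8h (113 to 133), and those with any difference (152 to 169). The list itself kept 150 to 167 of its 200 members without one replicate number, 158 at a minimum of 20 CPM, 168 at 5 CPM, 191 with TMM and 177 without mRNA of Dark 0h, an alternative added after the data were seen. Members lower at Light 8h against Light 4h numbered 0 to 2 with a library left out. Members lower at Light 8h against Light 0h numbered 1 to 2. From Light 8h to Dark 0h, higher members numbered 15 to 28 and lower members 1 to 14 with a library left out, and 16 were lower by DESeq2. At Dark 4h against Dark 0h, higher members numbered 0 to 2 with a library left out and 2 by DESeq2. Members higher at Dark 8h against Light 8h numbered 3 in a fit of the 2 groups, 0 to 1 with a library left out, 0 without the Dark 0h libraries, and 3 among members chosen without mRNA of Dark 0h. Members with highest GMUCT at Light 0h numbered 1 with unscaled CPM and 4 to 5 with a replicate number left out, those at Light 4h 11 to 23 and those at Dark 8h 6 to 8. Without Dark 0h, highest GMUCT was at Light 8h in 141, at Dark 4h in 27 and at Dark 8h in 8. The causes were not tested, except that leaving out Dark 0h moves its members to other times by construction. Shares of all genes called under the alternatives were not counted. For the named genes, 220 of 246 alternatives kept the call, 26 lost it and 0 changed sign.

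Replicate numbers were not used to pair the GMUCT libraries in the main fit. Same-numbered libraries correlated with r from -0.34 to 0.37 in their deviations, and in the 6 comparisons 0 to 5 of 6 libraries matched their own number best. The 5 were at Dark 4h against Dark 0h, where r was 0.03, 0.32 and 0.15, so pairing is not excluded there. With a replicate block, members lower at Light 8h against Light 4h numbered 1, and the other counts stayed within 1.5 times.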
